A study of Homo sapiens with 9 samples.

Results

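Laminin chains, nidogens and integrin subunits are 34 of the 57905 gene IDs in the deposited count table: 10 laminin chains, 2 nidogens, 14 integrin alpha subunits and 8 integrin beta subunits. They were chosen by symbol, through the Ensembl ID of each row, and all 34 were found. RNA was measured in 3 libraries per group of A549 cells, an established line from a human lung adenocarcinoma. The first group carried a short hairpin RNA (shRNA, which directs degradation of a matching transcript) against AKR1B1, which reduces glucose to sorbitol. The second carried an shRNA against SORD, which oxidises sorbitol to fructose. For the control cells, the sample titles read plko while the treatment field reads scrambled controls, and these were taken as 1 group. All cells were grown with 5% fetal bovine serum. Each target has 1 hairpin label, so hairpin and target cannot be told apart. They describe the libraries as biological replicates without saying whether these were separate transductions or dishes, so the spread behind every p-value is that between these libraries and may be technical.

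Laminins are the main polymer of the basement membrane. Each is a secreted trimer of an alpha, a beta and a gamma chain, and nidogens link the laminin network to type IV collagen. Integrins are cell surface receptors, each a pair of an alpha and a beta subunit, and the pair decides whether the receptor binds laminin, collagen, fibronectin or another ligand. In lung epithelium, laminin-binding integrins anchor the cell to the basement membrane, and ITGB6 and ITGB8 receptors bind the latent form of the cytokine TGF-beta.

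The libraries held 32436524 to 43044456 counted reads. The hairpin targets followed the labels: AKR1B1 in shAKR1B1 cells was at 10.9% of its control level, and SORD in shSORD cells was at 20.1% of its control level. Each target was also below control in the other knockdown, with AKR1B1 at 75.1% in shSORD cells and SORD at 71.2% in shAKR1B1 cells. Replicates of shSORD varied more than those of the other groups, with pairwise chi-square values per gene of 12 to 25.1, against 3.24 to 5.97 in shAKR1B1 and 2.31 to 5.57 in control. The 5 epithelial markers were all called higher in both knockdowns. Their summed level was 11189 to 11736 CPM (reads scaled to a common library size) in shAKR1B1, 9062.7 to 10824 CPM in shSORD and 6693.2 to 6851 CPM in control cells. Of 7 alveolar type II markers 3 could be tested, and 1 of these was called higher in each knockdown, beside the shares just given. All 7 together summed to 2.21 to 2.79 CPM in shAKR1B1, 2.98 to 3.32 CPM in shSORD and 1.63 to 2.24 CPM in control. NAPSA had the most reads of them, 37 to 101 per library, and the surfactant gene SFTPB was at 0 in every library. Of 6 fibroblast markers 4 could be tested, with all 4 called higher in shSORD, and 1 called higher and 1 lower in shAKR1B1. Of all tested genes, 27.5% were called higher in shSORD, and 27.8% higher and 29.6% lower in shAKR1B1. The 6 fibroblast markers summed to 8.58 to 10.2 CPM in shAKR1B1, 34.0 to 52.9 CPM in shSORD and 14.7 to 16.2 CPM in control. None of 5 endothelial markers passed the filter on low counts, and their sum was at most 0.285 CPM. The part of these marker differences in the results below was not tested.

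Of the 34 genes, 32 passed the filter on low counts and entered a test across 16916 genes with edgeR's quasi-likelihood method. A gene is called where its Benjamini-Hochberg adjusted p over all of these is under 0.05, and every adjusted p below is from that fit. ITGA8, which pairs with ITGB1 to bind nephronectin and fibronectin, had 0 to 3 reads per library and was not tested. ITGA9, which pairs with ITGB1 to bind tenascin C, had 4 to 10 reads per library and was not tested either. Against control, shAKR1B1 cells had 12 of the 32 called higher and 11 called lower, where 27.8% of all tested genes were called higher and 29.6% lower. In shSORD cells 10 were called higher and 12 lower, against a background of 27.5% higher and 29% lower. The shares called in either direction were 71.9% of the members in shAKR1B1, beside 57.4% of all tested genes, and 68.8% in shSORD, beside 56.5%. Changes of 2-fold or more were called for 10 members in shAKR1B1 (background 12.4%) and for 9 in shSORD (background 11.1%). The median log2 fold change of the 32 was -0.06 in shAKR1B1 and 0.05 in shSORD, beside -0.002 in both over all tested genes. In bulk RNA, fewer cells of a type and less RNA per cell cannot be told apart.

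The levels per length set which of these chains were abundant. On the scale of CPM per kilobase of exon, ITGB1, the common beta subunit, was the most abundant member with mean levels of 240.0 in shAKR1B1, 231 in shSORD and 264 in control. The laminin chains LAMB1 (81.4, 86.4 and 64.2 CPM per kilobase in shAKR1B1, shSORD and control), LAMC1 (59.2, 63.6 and 61.2) and LAMA5 (58.7, 65.1 and 59.6) came next, together with the integrin subunits ITGB5 (53.3, 47.0 and 55.8) and ITGA3 (40.8, 38.7 and 53.9). LAMA5, LAMB1 and LAMC1 form laminin-511, and ITGA3 with ITGB1 is one of its receptors. The members abundant in control cells moved by less than 2-fold against control. The 10 members at 10 or more CPM per kilobase in control cells had 5 calls in shAKR1B1 and 6 in shSORD, with 0 of 2-fold or more in either. The 22 tested members below that control level held all the calls of 2-fold or more, 10 in shAKR1B1 and 9 in shSORD. The division rests on the control level alone. LAMB3, at 7.54 CPM per kilobase in control, stood at 21.2 in shAKR1B1 and 28.1 in shSORD. Of all tested genes at any level, 57.4% were called in shAKR1B1 and 56.5% in shSORD. Calls of 2-fold or more were 12.4% and 11.1%. Whether abundant genes outside the members also moved less was not tested.

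**Figure D1:**
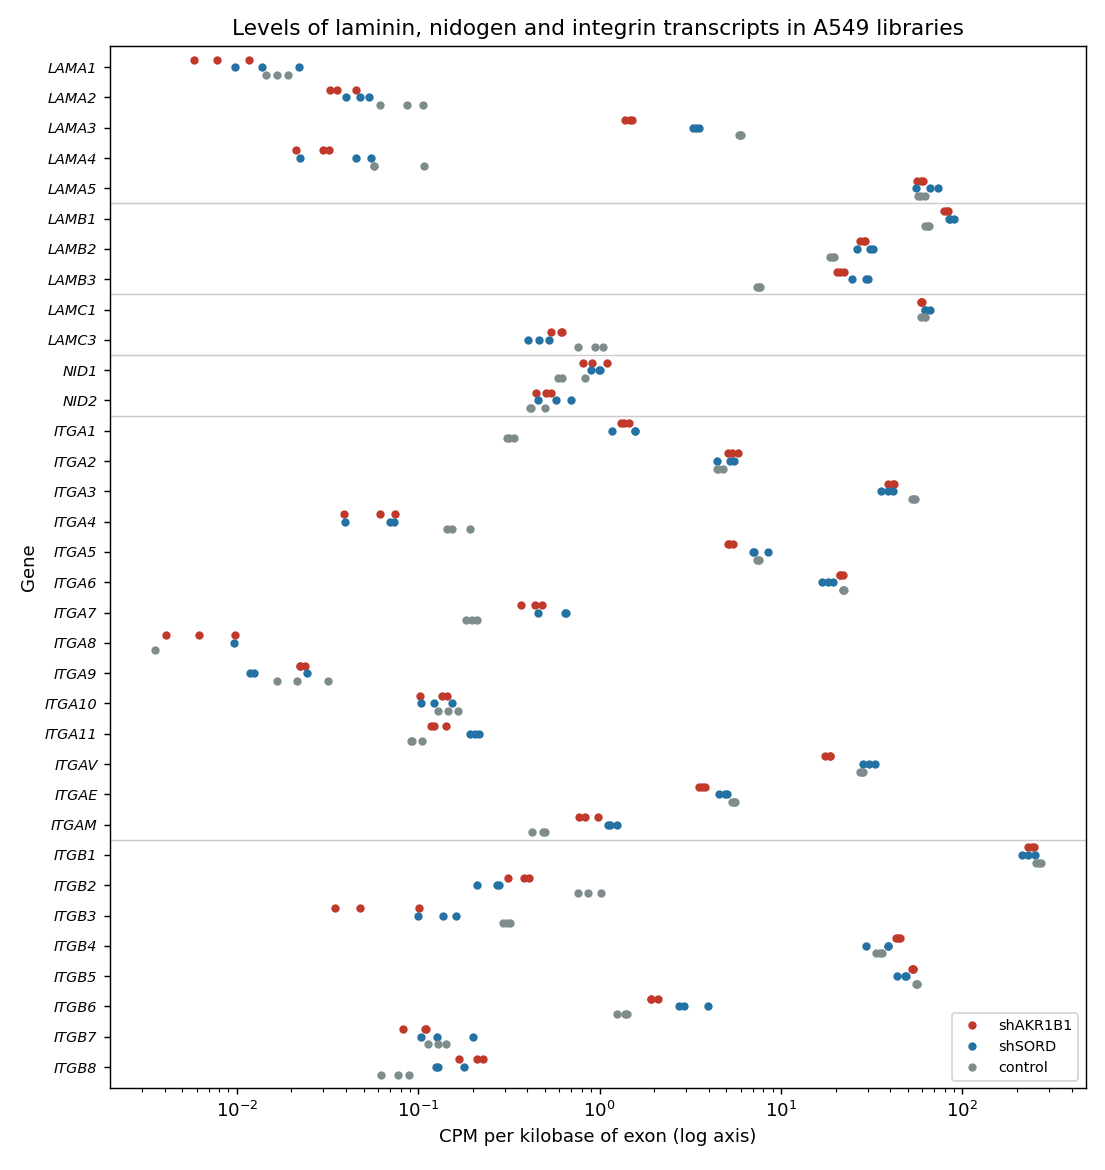
Level of each member in CPM per kilobase of exon (horizontal log axis) in every library, 1 point per library, in colours for shAKR1B1, shSORD and control; libraries with 0 reads have no point. ITGB1 stands highest, with group means of 240.0, 231 and 264, and the groups lie farthest apart among members of low level such as ITGB3 and ITGA1.

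Among the laminin alpha chains, which carry the receptor-binding end of the trimer, LAMA3 changed most in shAKR1B1. In shSORD its log2 fold change of -0.80 was close to those of the rare chains LAMA2 (-0.85) and LAMA4 (-0.84). LAMA3, the alpha chain of the epithelial anchoring laminins, stood at 21.7, 22.1 and 20.2 CPM in shAKR1B1 libraries, at 50.2, 51.5 and 48.3 CPM in shSORD libraries and at 86.1, 86.8 and 88.8 CPM in control libraries. The 3 groups did not overlap, and each group's libraries lay close together. The log2 fold change was -2.03 in shAKR1B1 against control (SE 0.0603, adjusted p = 1.78e-12) and -0.80 in shSORD against control (SE 0.0571, adjusted p = 2.92e-08). LAMA5, the most abundant alpha chain, had 807, 869.7 and 840.2 CPM in shAKR1B1, 947, 1049 and 796 CPM in shSORD and 893, 812 and 849 CPM in control. Its groups overlapped, and its log2 fold changes of -0.02 (95% interval -0.19 to 0.15) in shAKR1B1 and 0.13 (-0.04 to 0.30) in shSORD were not called. Without shSORD replicate 3, the lowest LAMA5 library, the shSORD value was 0.25 with adjusted p = 0.00126.

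The other alpha chains were rare. LAMA2, the alpha chain of muscle laminin, had 0.337, 0.469 and 0.371 CPM in shAKR1B1, 0.492, 0.414 and 0.552 CPM in shSORD and 1.1, 0.902 and 0.636 CPM in control. Every knockdown library was below every control library, at 11 to 19 reads in shAKR1B1, 17 to 22 in shSORD and 25 to 40 in control. LAMA2 fell in shAKR1B1 (log2 fold change -1.14, SE 0.272, adjusted p = 0.00226) and in shSORD (-0.85, SE 0.260, adjusted p = 0.012). The shSORD call on LAMA2 was lost without control replicate 1 (-0.66, adjusted p = 0.069) and with DESeq2 (adjusted p = 0.0532). LAMA4, the alpha chain of vessel laminins, had 0.245, 0.345 and 0.371 CPM in shAKR1B1, 0.259, 0.634 and 0.527 CPM in shSORD and 0.663, 1.25 and 0.662 CPM in control. The shSORD libraries came up to the lowest control libraries without reaching them. LAMA4 fell in shAKR1B1 (log2 fold change -1.39, SE 0.359, adjusted p = 0.0041) and in shSORD (-0.84, SE 0.332, adjusted p = 0.0416). The shSORD call on LAMA4 was lost under 5 of the leave-outs, for example without control replicate 2 (-0.48, adjusted p = 0.266) or without shSORD replicate 1 (-0.54, adjusted p = 0.184), and with DESeq2 (adjusted p = 0.0978). LAMA1, the chain of embryonic laminin, had 3 to 8 reads in shAKR1B1, 6 to 14 in shSORD and 9 to 11 in control, and was not called in either knockdown. Of the 5 alpha chains, 0 were called higher and 3 lower in each knockdown. Over all tested genes, 27.8% were called higher and 29.6% lower in shAKR1B1, and 27.5% and 29% in shSORD.

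All 3 laminin beta chains were called higher in both knockdowns, beside 27.8% of all tested genes in shAKR1B1 and 27.5% in shSORD. LAMB3, the beta partner of LAMA3 in the anchoring laminins, had 98.7, 104 and 95.7 CPM in shAKR1B1, 138, 141 and 115 CPM in shSORD and 35.7, 34.7 and 35.7 CPM in control. All knockdown libraries lay far above all control libraries, and the shSORD libraries lay above those of shAKR1B1. LAMB3 rose with log2 fold changes of 1.49 in shAKR1B1 (SE 0.0741, adjusted p = 4.35e-10) and 1.9 in shSORD (SE 0.0744, adjusted p = 6.6e-11). LAMB1, the beta chain of laminin-511 and the most abundant one here, had 674, 671 and 641 CPM in shAKR1B1, 729.6, 697 and 683 CPM in shSORD and 506, 534 and 528 CPM in control. The knockdown libraries lay above all control libraries, by a smaller step than for LAMB3. LAMB1 rose with log2 fold changes of 0.34 in shAKR1B1 (SE 0.0482, adjusted p = 2.5e-05) and 0.43 in shSORD (SE 0.0482, adjusted p = 3.14e-06). LAMB2, the beta chain of laminin-521, rose by log2 fold changes of 0.56 in shAKR1B1 (adjusted p = 6.22e-06) and 0.63 in shSORD (adjusted p = 2.27e-06).

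LAMA3 and LAMB3, which share a trimer, thus moved in opposite directions. Per length, the ratio of LAMB3 to LAMA3 was 14.6 ± 0.326 in shAKR1B1, 8.23 ± 0.648 in shSORD and 1.27 ± 0.0257 in control (SD, n = 3 each). The LAMA3 length spans its long and its short isoforms together, so the ratio depends on which isoform the cells make. LAMA3 made up 2.41% ± 0.131 of the laminin alpha chains per length in shAKR1B1, 5.01% ± 0.511 in shSORD and 9.06% ± 0.441 in control. LAMB3 made up 16.2% ± 0.436 of the beta chains in shAKR1B1, 19.4% ± 1.15 in shSORD and 8.29% ± 0.217 in control. In every knockdown library the share of LAMA3 was below, and that of LAMB3 above, all control libraries.

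**Figure D2:**
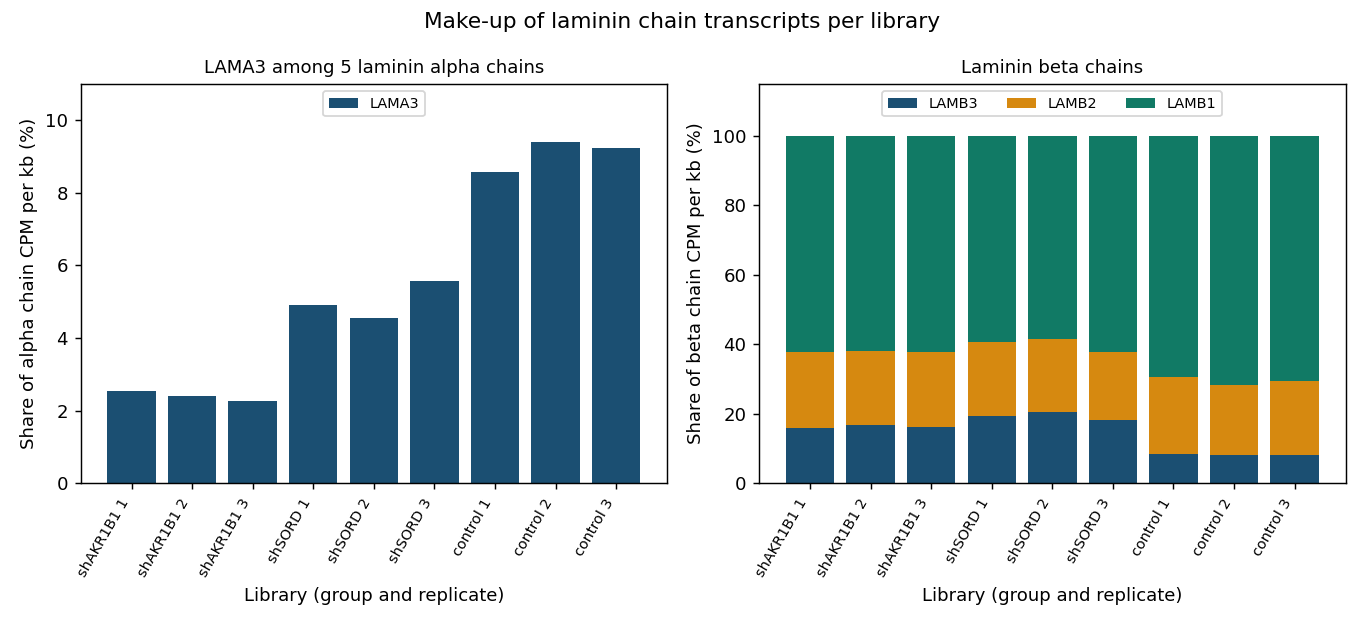
Left, the share of LAMA3 among the laminin alpha chains, in percent of their summed CPM per kilobase, with 1 bar per library. Right, the shares of LAMB3, LAMB2 and LAMB1 among the laminin beta chains in the same 9 libraries. LAMA3 averages 2.41% in shAKR1B1 and 5.01% in shSORD against 9.06% in control, while LAMB3 averages 16.2% and 19.4% against 8.29%.

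The promoters of LAMA3 and LAMB3 are shown because these partner chains moved apart, and that of ITGA5 because it is the other member whose window holds an AP-1 match. The sequences are RefSeq windows on GRCh38.p14, from 250 bases before to 50 after a transcript start, and 26 of the 34 members had 1 or more windows. Capitals mark matches, on either strand, to an AP-1 site (TGANTCA), an E-box of SNAI and ZEB factors (CAGGTG or its reverse complement CACCTG) or a GC box (GGGCGG or CCGCCC). The LAMA3 window is chr18:23872770-23873069 on the plus strand. LAMB3 has 3 windows, of which the one printed, chr1:209651325-209651624 on the minus strand, was picked for its AP-1 match. The other 2 hold no AP-1 match, and 1 of them holds an E-box. The ITGA5 window is the ITGA5 window chr12:54419217-54419516 on the minus strand.
LAMA3: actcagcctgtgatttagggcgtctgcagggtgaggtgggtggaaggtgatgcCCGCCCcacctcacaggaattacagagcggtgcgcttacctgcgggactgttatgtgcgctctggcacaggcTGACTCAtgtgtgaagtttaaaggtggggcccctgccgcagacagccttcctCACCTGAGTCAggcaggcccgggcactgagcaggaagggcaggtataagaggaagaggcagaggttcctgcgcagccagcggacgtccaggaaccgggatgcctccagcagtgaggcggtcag
LAMB3: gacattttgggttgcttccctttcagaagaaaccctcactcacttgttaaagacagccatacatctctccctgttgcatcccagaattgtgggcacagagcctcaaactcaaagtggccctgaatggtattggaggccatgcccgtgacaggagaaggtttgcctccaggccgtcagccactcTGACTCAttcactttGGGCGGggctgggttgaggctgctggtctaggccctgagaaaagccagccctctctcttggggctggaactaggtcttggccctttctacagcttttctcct
ITGA5: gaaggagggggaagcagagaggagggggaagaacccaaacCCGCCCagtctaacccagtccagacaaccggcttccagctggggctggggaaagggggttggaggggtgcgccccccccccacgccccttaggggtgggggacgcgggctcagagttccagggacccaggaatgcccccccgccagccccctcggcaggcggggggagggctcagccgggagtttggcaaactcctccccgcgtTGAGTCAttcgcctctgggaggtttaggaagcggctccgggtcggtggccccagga
In the LAMA3 window the second AP-1 match overlaps the E-box, in the run CACCTGAGTCA. An AP-1 match was present in 3 of the 33 member windows and in 7.71% of the 35116 windows in the table. An E-box was present in 7 member windows, against 20.6% of all windows, and a GC box in 21, against 45.0%. A TATA box (TATAAA) was present in 2 member windows, against 11.5%. These matches are letters in a window, and binding was not measured.

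The gamma chain LAMC1, shared by most laminins, had 501, 494 and 498 CPM in shAKR1B1, 524, 526 and 555 CPM in shSORD and 499, 522 and 524 CPM in control. The shAKR1B1 and control libraries overlapped, and the lowest shSORD library was level with the highest control library. The log2 fold changes of LAMC1 of -0.05 (adjusted p = 0.392) and 0.06 (adjusted p = 0.327) were not called. LAMC3, a rare gamma chain, fell in shAKR1B1 (log2 fold change -0.64, SE 0.130, adjusted p = 0.00069) and in shSORD (-0.98, SE 0.133, adjusted p = 2e-05). Per length, the summed beta chains stood at 2.19 ± 0.0694 times the summed gamma chains in shAKR1B1, 2.25 ± 0.201 in shSORD and 1.46 ± 0.0156 in control (SD, n = 3 each). The corresponding ratio of alpha to gamma chains was 1.01 in shAKR1B1, 1.07 in shSORD and 1.06 in control. Of the nidogens, NID1 had log2 fold changes of 0.47 (adjusted p = 0.0117) in shAKR1B1 and 0.50 (adjusted p = 0.00732) in shSORD. Its shAKR1B1 call was lost without control replicate 1 (0.40, adjusted p = 0.0551), control replicate 2 (0.37, adjusted p = 0.0641) or shAKR1B1 replicate 2 (0.36, adjusted p = 0.0622). NID2 was not called (0.15, adjusted p = 0.437, and 0.37, adjusted p = 0.0532). In shSORD it reached 0.53 with adjusted p = 0.00442 without shSORD replicate 3, and was also called without control replicate 2 or shAKR1B1 replicate 2 (values of 0.46 and 0.38). It was called as well under 5 other settings, at 0.36 to 0.44, such as a stricter filter (0.41, adjusted p = 0.0364). NID2 shares 29.96% of its exon bases with RTRAF on the opposite strand. The strand setting of the counting is not given in the sources used here, so reads of these overlapping genes cannot be told apart.

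**Figure D3:**
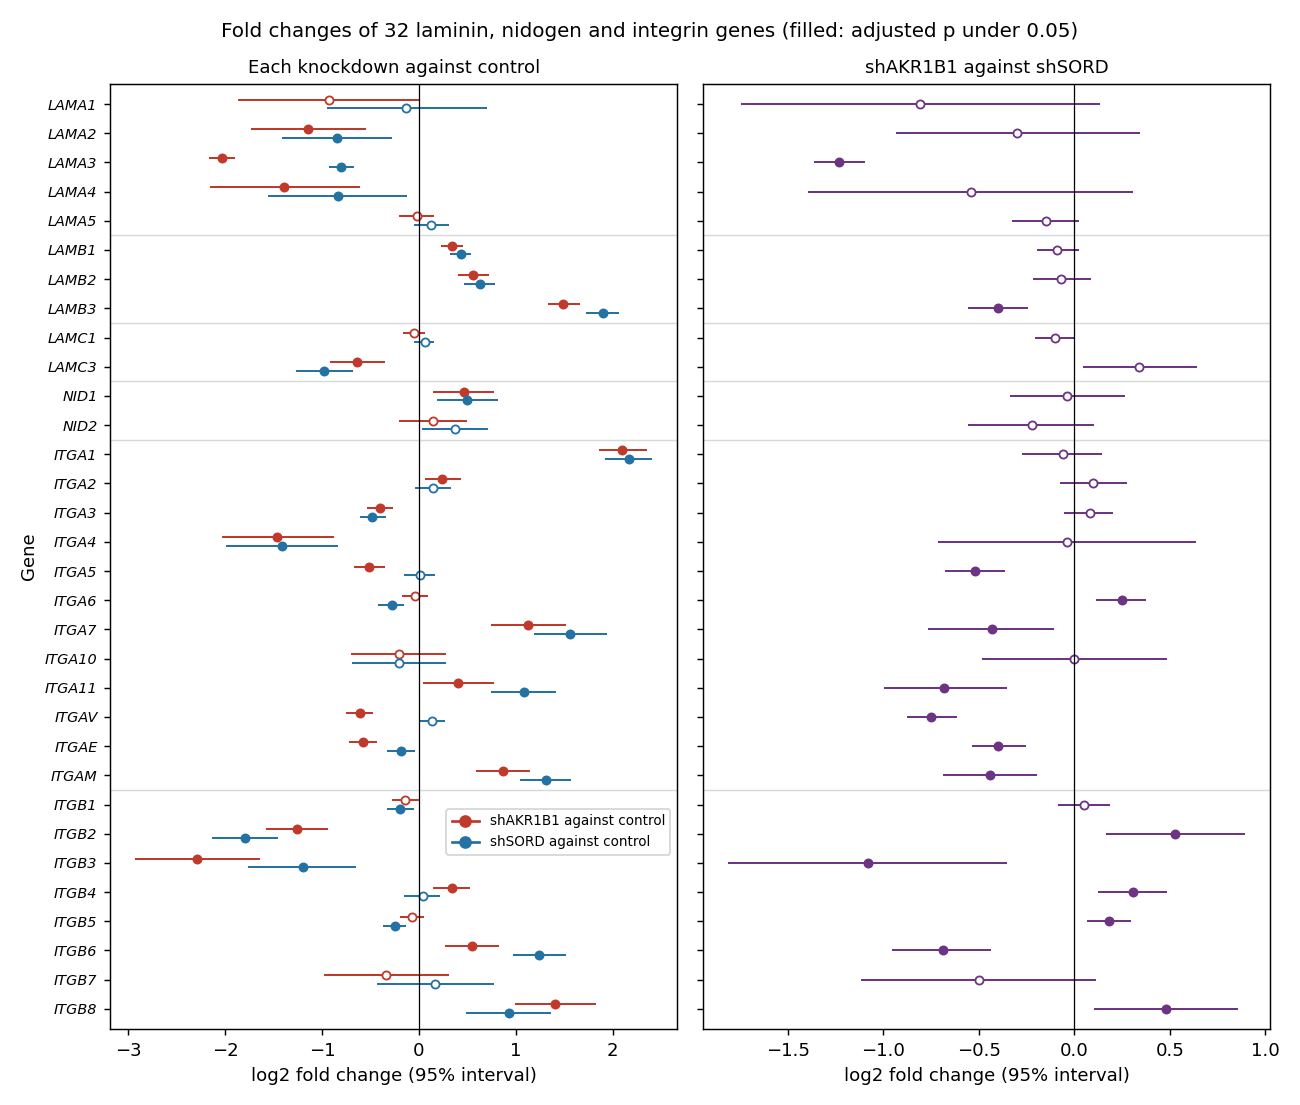
Log2 fold change with its 95% interval for each of the 32 tested members, in rows by family; filled points have an adjusted p under 0.05. Left, shAKR1B1 and shSORD against control, where LAMA3 lies at -2.03 and -0.80 and LAMB3 at 1.49 and 1.9. Right, shAKR1B1 against shSORD, where LAMA3 lies at -1.23.

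The 20 tested integrin subunits included 8 called higher and 7 called lower in shAKR1B1, beside 27.8% and 29.6% of all tested genes. In shSORD 6 were called higher and 8 lower, beside 27.5% and 29%. Among the laminin-binding subunits, ITGA3 fell in both knockdowns. ITGA3, the alpha subunit of the main epithelial laminin receptor with ITGB1, had 382, 407 and 412 CPM in shAKR1B1, 383, 407 and 349 CPM in shSORD and 532, 519 and 535 CPM in control. All knockdown libraries were below all control libraries. The log2 fold changes were -0.40 in shAKR1B1 (SE 0.0579, adjusted p = 3.13e-05) and -0.48 in shSORD (adjusted p = 6.68e-06). ITGB1 itself had 1495, 1452 and 1381 CPM in shAKR1B1, 1382, 1274 and 1517 CPM in shSORD and 1539, 1634 and 1586 CPM in control. The knockdown libraries lay below the control libraries by a small step. The log2 fold changes of ITGB1 were -0.14 in shAKR1B1 (adjusted p = 0.0638, not called) and -0.19 in shSORD (SE 0.0602, adjusted p = 0.0145). The shAKR1B1 value was called without shSORD replicate 2 (-0.14, adjusted p = 0.0194) or replicate 3 (-0.12, adjusted p = 0.0266), and when only the groups compared were fitted (-0.12, adjusted p = 0.0104). The shSORD call on ITGB1 was lost without control replicate 2 (-0.17, adjusted p = 0.059) and under library totals (-0.12, adjusted p = 0.0824).

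ITGA6 and ITGB4 pair in the hemidesmosome, the junction that ties epithelial cells to laminin. ITGA6 had a log2 fold change of -0.04 in shAKR1B1 (adjusted p = 0.581) and fell in shSORD (-0.28, SE 0.0567, adjusted p = 0.0006). ITGB4 had 305, 300.03 and 290.3 CPM in shAKR1B1, 264, 262 and 199.5 CPM in shSORD and 243, 227 and 237 CPM in control. ITGB4 rose in shAKR1B1 (log2 fold change 0.34, SE 0.0831, adjusted p = 0.00269), where every library lay above every control library. In shSORD the third library lay below control and the other 2 above it, and the value of 0.04 (adjusted p = 0.731) was not called. Without shSORD replicate 3 it was 0.18 with adjusted p = 0.0045. ITGA6 per ITGB4, on the scale per length, stood at 0.487 ± 0.00771 in shAKR1B1, 0.519 ± 0.121 in shSORD and 0.634 ± 0.0154 in control (SD, n = 3 each). ITGA7, a laminin-binding subunit of muscle, had 2.36, 2.81 and 3.06 CPM in shAKR1B1, 4.14, 4.12 and 2.93 CPM in shSORD and 1.27, 1.35 and 1.17 CPM in control. The knockdown and control libraries did not overlap. ITGA7 rose in shAKR1B1 (log2 fold change 1.13, SE 0.177, adjusted p = 7.17e-05) and in shSORD (1.56, SE 0.171, adjusted p = 2.34e-06).

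The collagen-binding alpha subunits all pair with ITGB1. ITGA1, which prefers type IV collagen, had 27.1, 24.4 and 25.3 CPM in shAKR1B1, 29.2, 21.8 and 29.2 CPM in shSORD and 5.88, 6.23 and 5.73 CPM in control. All knockdown libraries lay far above all control libraries, and the knockdowns overlapped each other. ITGA1 rose with log2 fold changes of 2.10 in shAKR1B1 (SE 0.111, adjusted p = 8.48e-10) and 2.17 in shSORD (SE 0.111, adjusted p = 9.89e-10). ITGA2, which prefers type I collagen, was the most abundant of these and had log2 fold changes of 0.24 in shAKR1B1 (adjusted p = 0.0172) and 0.15 in shSORD (adjusted p = 0.135). The shAKR1B1 call on ITGA2 was lost without control replicate 2 (0.23, adjusted p = 0.0603) or shAKR1B1 replicate 1 (0.20, adjusted p = 0.0878), and the shSORD value was called without shSORD replicate 2 (0.23, adjusted p = 0.00657). Of the collagen-binding alphas per length, ITGA1 made up 19.5% ± 0.803 in shAKR1B1, 21.0% ± 1.3 in shSORD and 6.24% ± 0.367 in control (SD, n = 3 each). ITGA11, a collagen receptor subunit of fibroblasts, had 1.29, 1.55 and 1.32 CPM in shAKR1B1, 2.23, 2.34 and 2.11 CPM in shSORD and 0.994, 1.01 and 1.15 CPM in control. The 3 groups did not overlap. ITGA11 rose in shSORD (log2 fold change 1.08, SE 0.155, adjusted p = 3.25e-05), where the summed fibroblast markers were also highest. In shAKR1B1 the summed markers were below control (8.58 to 10.2 against 14.7 to 16.2 CPM), while every ITGA11 library was above control. A link between ITGA11 and these markers was not tested. The shAKR1B1 value of 0.40 (adjusted p = 0.0494) sat at the threshold and was not called under 8 of the 9 leave-outs (adjusted p up to 0.174, without shAKR1B1 replicate 2) or with DESeq2 (0.161). ITGA10, a cartilage subunit, had -0.21 in each knockdown and was not called (adjusted p = 0.439 and 0.444).

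**Figure D4:**
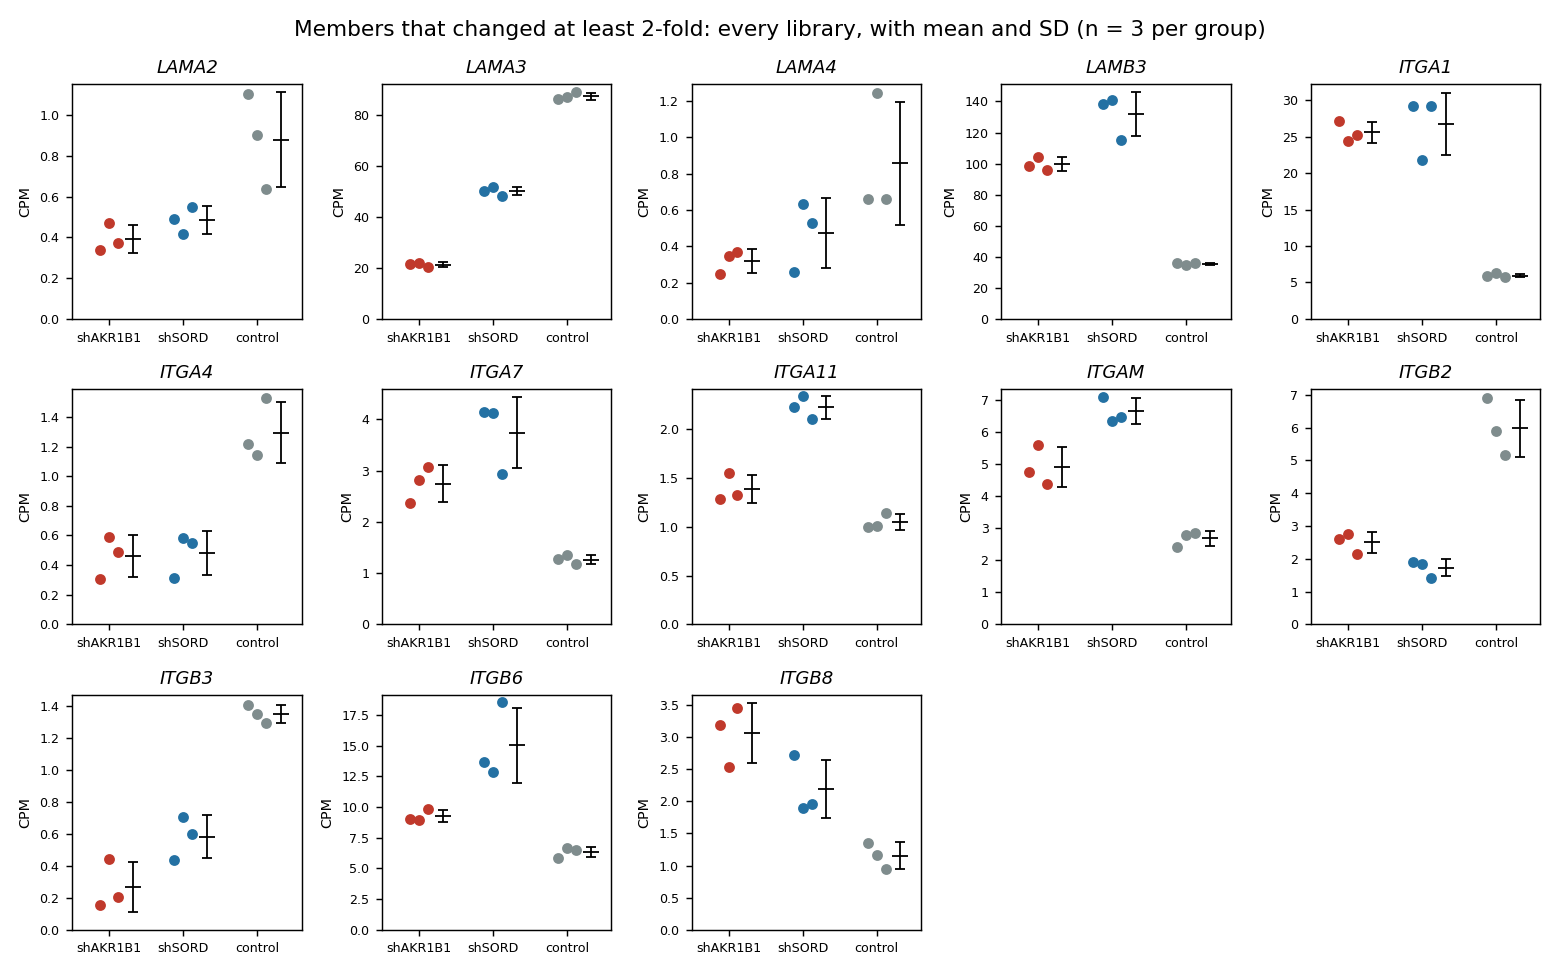
CPM in every library (vertical axes from 0) for the 13 members called with a 2-fold or larger change in a comparison, with shAKR1B1, shSORD and control from left to right, 1 point per library, and the mean with its SD. ITGA1 is at 21.8 to 29.2 CPM in the knockdowns against 5.73 to 6.23 CPM in control, and ITGB3 is lower in both knockdowns than in control.

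The receptors for fibronectin, vitronectin and latent TGF-beta share ITGAV or ITGA5. ITGAV had 153, 144 and 153 CPM in shAKR1B1, 252, 232 and 272 CPM in shSORD and 224, 233 and 230.0 CPM in control. The shAKR1B1 libraries lay below all others, and shSORD overlapped control. ITGAV fell in shAKR1B1 (log2 fold change -0.61, SE 0.0595, adjusted p = 6.18e-07), and the value of 0.14 in shSORD was not called (adjusted p = 0.0595). The shSORD value was called without shSORD replicate 2 (0.19, adjusted p = 0.00372) or shAKR1B1 replicate 2 (0.15, adjusted p = 0.0472), and under a stricter filter (0.18, adjusted p = 0.0172). ITGA5, the fibronectin receptor subunit, fell in shAKR1B1 (log2 fold change -0.51, SE 0.0715, adjusted p = 2.29e-05) and had 0.01 in shSORD (adjusted p = 0.921). Both alpha subunits were thus lower in shAKR1B1 cells, and their difference between the knockdowns was itself called (log2 fold change in shAKR1B1 against shSORD -0.75 for ITGAV, adjusted p = 2.53e-07, and -0.52 for ITGA5, adjusted p = 5.34e-05).

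The beta partners of ITGAV moved in different directions. ITGB5, a vitronectin receptor subunit and the most abundant of them after ITGB1, had 343, 347 and 340.3 CPM in shAKR1B1, 317, 312 and 279.7 CPM in shSORD and 361.5, 361 and 357 CPM in control. Both knockdowns lay below control, shSORD lowest. ITGB5 fell in shSORD (log2 fold change -0.25, SE 0.0527, adjusted p = 0.000991) and had -0.07 in shAKR1B1 (adjusted p = 0.287). ITGB3, the other vitronectin receptor subunit, had 0.153, 0.444 and 0.209 CPM in shAKR1B1, 0.440, 0.707 and 0.602 CPM in shSORD and 1.41, 1.35 and 1.30 CPM in control. Every knockdown library was below every control library, with 5 to 18 reads in shAKR1B1, 17 to 29 in shSORD and 51 in each control library. ITGB3 fell in shAKR1B1 (log2 fold change -2.29, SE 0.297, adjusted p = 1.11e-05) and in shSORD (-1.20, SE 0.256, adjusted p = 0.000995). A same-strand gene covers 51.57% of the ITGB3 exon bases, and reads in the shared part may have been counted for neither gene.

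ITGB6 and ITGB8, which pair with ITGAV to bind latent TGF-beta, both rose. ITGB6 had 9.01, 8.98 and 9.86 CPM in shAKR1B1, 13.7, 12.9 and 18.5 CPM in shSORD and 5.88, 6.66 and 6.49 CPM in control. The 3 groups did not overlap, with shSORD highest. The log2 fold changes of ITGB6 were 0.55 in shAKR1B1 (SE 0.128, adjusted p = 0.00191) and 1.24 in shSORD (SE 0.123, adjusted p = 8.85e-07). ITGB8 had 3.19, 2.54 and 3.46 CPM in shAKR1B1, 2.72, 1.9 and 1.96 CPM in shSORD and 1.35, 1.17 and 0.942 CPM in control. All knockdown libraries were above all control libraries. The log2 fold changes of ITGB8 were 1.41 in shAKR1B1 (SE 0.192, adjusted p = 1.83e-05) and 0.93 in shSORD (SE 0.200, adjusted p = 0.00114). A same-strand gene covers 20.61% of the ITGB6 exon bases.

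The subunits best known from leukocytes were rare and did not move as a group. ITGA4, which pairs with ITGB1 or ITGB7 to bind VCAM1 and fibronectin, had 0.306, 0.592 and 0.487 CPM in shAKR1B1, 0.311, 0.585 and 0.552 CPM in shSORD and 1.22, 1.14 and 1.53 CPM in control. ITGA4 fell in shAKR1B1 (log2 fold change -1.46, SE 0.266, adjusted p = 0.000277) and in shSORD (-1.41, SE 0.263, adjusted p = 0.000339), with no overlap between knockdown and control libraries. ITGB2, the shared beta subunit of leukocyte integrins, had 2.6, 2.76 and 2.13 CPM in shAKR1B1, 1.89, 1.85 and 1.43 CPM in shSORD and 6.90, 5.89 and 5.17 CPM in control. ITGB2 fell in shAKR1B1 (log2 fold change -1.26, SE 0.146, adjusted p = 3.55e-06) and in shSORD (-1.79, SE 0.153, adjusted p = 1.92e-07), again without overlap. Its alpha partner ITGAM had 4.75, 5.60 and 4.36 CPM in shAKR1B1, 7.10, 6.34 and 6.47 CPM in shSORD and 2.40, 2.78 and 2.85 CPM in control. ITGAM rose in shAKR1B1 (log2 fold change 0.87, SE 0.125, adjusted p = 3.16e-05) and in shSORD (1.31, SE 0.122, adjusted p = 4.67e-07), the opposite direction to its partner. Among the leukocyte markers, CD3E was at 0 in every library, PTPRC at 0 to 3 reads and CD68 at 1 to 5. CD14 and LYZ were the 2 of 6 that could be tested, CD14 lower and LYZ higher in both knockdowns, and the summed markers were 5.22 to 5.97 CPM in shAKR1B1, 2.88 to 4.53 CPM in shSORD and 8.14 to 9.83 CPM in control. The part of these markers in the ITGB2 result was not tested.

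ITGAE, which pairs with ITGB7 to bind E-cadherin, fell in shAKR1B1 (log2 fold change -0.58, adjusted p = 2.24e-06) and in shSORD (-0.18, adjusted p = 0.0234). The shSORD call on ITGAE was lost without control replicate 2 (-0.18, adjusted p = 0.0604), control replicate 3 (-0.15, adjusted p = 0.119), shAKR1B1 replicate 2 (-0.17, adjusted p = 0.0545) or shSORD replicate 1 (-0.13, adjusted p = 0.153). ITGAE shares 6.41% of its exon bases with HASPIN. ITGB7 had 12 to 36 reads per library and was not called, with log2 fold changes of -0.34 in shAKR1B1 (adjusted p = 0.348) and 0.17 in shSORD (adjusted p = 0.632). It shares 42.09% of its exon bases with ZNF740 on the opposite strand.

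Read as receptors, few of the 20 known alpha and beta pairs had both subunits called in 1 direction. In 2 of the 20, ITGA8 and ITGA9 with ITGB1, a subunit was not tested. In shAKR1B1 against control both subunits were lower for ITGAV with ITGB3, and the subunits moved in opposite directions for ITGAV with ITGB6, ITGAV with ITGB8 and ITGAM with ITGB2. In shSORD against control both subunits were lower for ITGA3, ITGA4 and ITGA6 with ITGB1, and opposite for ITGA1, ITGA7 and ITGA11 with ITGB1 and for ITGAM with ITGB2. The shSORD pairs with ITGB1 rest on its call of adjusted p = 0.0145, which was lost without control replicate 2 (adjusted p = 0.059). The 10 laminin trimers set out here each join an alpha chain with LAMB1 or LAMB2 and with LAMC1, so none holds LAMB3 or LAMC3. Of these, 6 had chains called in opposite directions in shAKR1B1 and 6 in shSORD, each with a beta chain higher. They repeat the calls of LAMA2, LAMA3 and LAMA4 as lower and of LAMB1 and LAMB2 as higher, and are not separate results. The trimers with LAMA2 or LAMA4 rest in shSORD on the calls that single libraries ended above. The summed alpha partners per ITGB1, on the scale per length, stood at 0.390 ± 0.0199 in shAKR1B1, 0.445 ± 0.0362 in shSORD and 0.443 ± 0.015 in control (SD, n = 3 each). ITGAV per ITGB5 stood at 0.344 ± 0.0145 in shAKR1B1, 0.657 ± 0.0945 in shSORD and 0.5 ± 0.0113 in control.

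The knockdowns were also set against each other. In shAKR1B1 against shSORD, 5 of the 32 were called higher (background 15.5%) and 10 lower (15.1%). In either direction 46.9% were called, beside 30.7% of all tested genes. Calls of 2-fold or more numbered 2 (background 5.19%), for LAMA3 and ITGB3, both lower in shAKR1B1. LAMA3 was lower by a log2 fold change of -1.23 (SE 0.0601, adjusted p = 1.8e-09), and LAMB3 by -0.40 (SE 0.0706, adjusted p = 0.000485). ITGB3 had -1.08 (SE 0.340, adjusted p = 0.0251), a call lost without shAKR1B1 replicate 1 (-0.85, adjusted p = 0.0988), shAKR1B1 replicate 3 (-0.90, adjusted p = 0.108) or shSORD replicate 2 (-0.92, adjusted p = 0.0769). ITGB6 (-0.69, SE 0.119, adjusted p = 0.000386), ITGA11 (-0.68, SE 0.147, adjusted p = 0.00269), ITGAM (-0.44, adjusted p = 0.00849) and ITGAE (-0.40, adjusted p = 0.000244) were lower as well. ITGA6 (0.25, adjusted p = 0.00408) and ITGB4 (0.31, adjusted p = 0.0117), the hemidesmosome pair, were both higher in shAKR1B1.

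Several members were not called between the knockdowns. ITGA1 had a log2 fold change of -0.06 in shAKR1B1 against shSORD (95% interval -0.27 to 0.14, adjusted p = 0.669), although it was called without shSORD replicate 2 (-0.19, adjusted p = 0.0372). LAMA5 had -0.15 (adjusted p = 0.166) and LAMB2 -0.07 (adjusted p = 0.486), and both were called without shSORD replicate 3 (-0.25, adjusted p = 0.00203, and -0.16, adjusted p = 0.0201), as was NID2 (-0.36, adjusted p = 0.0499). LAMC3 had 0.34 (95% interval 0.05 to 0.64, adjusted p = 0.0757) and was called without shSORD replicate 2 (0.44, adjusted p = 0.0307). With the replicate number as a block among the 2 knockdown groups, it was also called (0.33, adjusted p = 0.0417). ITGA7 (-0.43, adjusted p = 0.0414), ITGB8 (0.48, adjusted p = 0.046), ITGB2 (0.53, adjusted p = 0.0268) and ITGB5 (0.18, adjusted p = 0.0174) were called by narrow margins. ITGA7 lost its call under 7 of the 9 leave-outs (adjusted p up to 0.162, without shAKR1B1 replicate 1) and ITGB8 under 6 (up to 0.185, without shAKR1B1 replicate 3). ITGB2 lost its call without shAKR1B1 replicate 1 (0.50, adjusted p = 0.0766), shAKR1B1 replicate 2 (0.45, adjusted p = 0.0995) or shSORD replicate 3 (0.41, adjusted p = 0.0743). ITGB5 lost it without shAKR1B1 replicate 1 (adjusted p = 0.0547) or replicate 2 (0.0642), and ITGAM without shAKR1B1 replicate 3 (-0.35, adjusted p = 0.052). Of the 5 members called higher in shAKR1B1 against shSORD, 2 were left without shAKR1B1 replicate 1, and 3 without shAKR1B1 replicate 2 or shSORD replicate 3.

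Other genes of cell adhesion were read from a list of 75, of which 73 were tested. In shAKR1B1 against control 20 were called higher and 37 lower, beside 27.8% and 29.6% of all tested genes, with a median log2 fold change of -0.19. In shSORD 28 were called higher and 21 lower, beside 27.5% and 29%, with a median of 0.08. In shAKR1B1 against shSORD 8 were called higher and 38 lower, beside 15.5% and 15.1%, with a median of -0.20, beside 0.01 over all tested genes. The count of 8 was 5 without shAKR1B1 replicate 3. The same shares apply to the smaller lists by role. Among 15 focal adhesion adaptors, 3 were called higher and 10 lower in shAKR1B1, and 5 higher and 2 lower in shSORD. The 18 talins, kindlins and their signalling partners had 4 higher and 8 lower in shAKR1B1, and 6 higher and 7 lower in shSORD. Of 9 other laminin receptors and hemidesmosome genes, 1 was called higher and 5 lower in shAKR1B1, and 2 higher and 1 lower in shSORD.

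Among 14 tested basement membrane genes beside laminins, 6 were called higher and 6 lower in shAKR1B1, and 9 higher and 3 lower in shSORD, where all tested genes had 27.8% higher and 29.6% lower, and 27.5% and 29%. COL4A1, a main chain of type IV collagen, had 54.6, 59.3 and 58.4 CPM in shAKR1B1, 116, 148 and 137 CPM in shSORD and 205, 203 and 218 CPM in control. COL4A1 fell in shAKR1B1 (log2 fold change -1.86, SE 0.0778, adjusted p = 7.04e-11) and in shSORD (-0.64, SE 0.0747, adjusted p = 4.34e-06), with no overlap between the groups. COL4A3, a type IV collagen chain of alveolar and kidney basement membranes, had 36.9, 36.6 and 30.1 CPM in shAKR1B1, 58.3, 51.9 and 49.2 CPM in shSORD and 9.22, 9.60 and 9.67 CPM in control. COL4A3 rose in shAKR1B1 (log2 fold change 1.86, SE 0.0932, adjusted p = 4.81e-10) and in shSORD (2.48, SE 0.0930, adjusted p = 4.23e-11), again with no overlap. Of 17 integrin ligands other than laminin, 6 were called higher and 8 lower in each knockdown. VTN, vitronectin, the ligand of ITGAV with ITGB3 or ITGB5, rose in shAKR1B1 (log2 fold change 2.21, SE 0.0894, adjusted p = 4.93e-11) and in shSORD (2.65, SE 0.0897, adjusted p = 1.66e-11). FN1, fibronectin, had 1765, 1722 and 1584 CPM in shAKR1B1, 642, 500.4 and 477 CPM in shSORD and 1212, 1227 and 1231 CPM in control. FN1 was above control in every shAKR1B1 library (log2 fold change 0.47, adjusted p = 0.000275) and below it in every shSORD library (-1.18, SE 0.0864, adjusted p = 4.04e-08). TNC, tenascin C, fell in shAKR1B1 (log2 fold change -3.25, SE 0.317, adjusted p = 5.98e-07) and by less in shSORD (-1.05, adjusted p = 0.00176), a difference that was itself called (-2.20 in shAKR1B1 against shSORD, adjusted p = 0.000212). TGFB1, whose latent form ITGB6 and ITGB8 receptors bind, fell in shAKR1B1 (log2 fold change -1.29, SE 0.0815, adjusted p = 5.71e-09) and in shSORD (-1.25, SE 0.0813, adjusted p = 1.23e-08). TNS1, a tensin that links integrins to actin, rose in shAKR1B1 (log2 fold change 1.95, SE 0.0899, adjusted p = 2.06e-10) and in shSORD (2.1, SE 0.0899, adjusted p = 1.55e-10).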

How the data were processed

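RNA was extracted with Qiazol and a miRNeasy kit, and libraries were made with the TruSeq stranded mRNA kit, per the labels' protocols. The submitters' processing notes name cutadapt 1.9.1, STAR 2.5.2b, featureCounts 1.5.1, DESeq2 1.12.3 and the build GRCh37. The authors deposited raw read counts per Ensembl gene, and the strand setting used is not given in the sources. Gene symbols were matched to 51996 of 57905 IDs.

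From these counts, the filter filterByExpr of edgeR 4.0.16 (R 4.3.3) kept 16916 genes, TMM factors (0.971 to 1.03) were computed and a quasi-likelihood model with 1 mean per group was fitted over all 9 libraries (common biological coefficient of variation 6.59%). The 3 group contrasts were adjusted by Benjamini-Hochberg over all tested genes, with calls at 0.05. SEs and 95% intervals follow from the F statistic and its degrees of freedom. CPM uses TMM-adjusted library sizes, and CPM per kilobase divides by the exon union length in GENCODE 29 on GRCh38. Code was tested on simulated data. DESeq2 1.42.0, other normalizations, filters, a replicate block and leave-outs were alternatives. Full values were given for members called at 2-fold or more in a contrast or among the 6 highest by mean CPM, and further per-library values for partner subunits. For the adhesion list, the 2 largest called rises and falls per knockdown were named among genes averaging 50 or more reads in a library. Same-numbered shAKR1B1 and shSORD libraries deviated together from their group means (r = 0.163 to 0.281, against at most 0.069 for other numbers). Over all pairs of groups, a library correlated best with its own number in 9 of 18 cases. The labels give no pairing, and with 3 libraries per group these correlations cannot establish one. A fit of both groups with a block was added after seeing this. Members and lists were chosen with earlier results of these data known.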

Additional observations from a re-analysis of the deposited data

How the results depend on the processing

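Across 1648 values of members and hairpin targets under the alternatives, 1528 kept their direction and side of the threshold, 64 lost a call, 31 gained one and 25 changed sign, all of the last in members that were not called. The members called higher in shAKR1B1 against shSORD numbered 5, but 3 when only the groups compared entered the fit, and 2 to 5 with 1 library left out. The adhesion genes called higher there numbered 8, but 5 with only the groups compared, and 5 to 7 with 1 library left out. Signs changed for LAMA5 in shAKR1B1 against control (0.01 under a stricter filter, 0.02 under library totals, leave-outs -0.06 to 0.01) and ITGA6 (0.01 under library totals). In shSORD against control they changed for ITGA5 (0 with no filter, leave-outs -0.08 to 0.08), ITGB4 (leave-outs -0.03 to 0.18), ITGB7 (-0.14 to 0.36) and LAMA1 (-0.47 to 0.12). In shAKR1B1 against shSORD they changed for ITGA10 (0 with DESeq2 size factors, 0.01 with DESeq2, leave-outs -0.14 to 0.17), ITGA1 (leave-outs -0.19 to 0.01), ITGA4 (-0.27 to 0.15), ITGB1 (-0.01 to 0.12) and NID1 (-0.16 to 0.06). Causes of these changes were not tested.

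Same-numbered libraries did not deviate together with control (r = -0.054 to -0.012 for shAKR1B1 and -0.049 to 0.069 for shSORD), unlike the knockdowns with each other. With the replicate block over all libraries, 11 members were called higher and 11 lower in shAKR1B1, 12 and 12 in shSORD, and 5 and 10 in shAKR1B1 against shSORD, where ITGA10 was at 0.01. The block among the knockdowns alone, chosen after seeing the data, gave 6 higher and 10 lower, and changed the call of LAMC3 and of no other member. Members under about 60 reads, such as LAMA4, ITGA4 and ITGB3, carry wide errors.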
